A study of Mus musculus with 8 samples.

Results

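The genes of neutral lipid storage examined here were 10 of the 26939 genes in the joined count tables of tumor-associated macrophages (TAMs). They comprised *Dgat1* and *Dgat2*, which make triglyceride, *Plin2* and *Plin3*, which coat lipid droplets, *Pnpla2*, *Lipe* and *Mgll*, which break triglyceride down, *Lpl* and *Lipa*, which hydrolyse lipoprotein and lysosomal lipid, and *Soat1*, which esterifies cholesterol. All 10 were found by gene symbol, and their raw counts were joined by gene identifier. *Dgat2* was selected on its measured values, as a gene high in *Unc93b1* 3d/3d control TAMs and in no other group, so its values in every comparison are a description without a test. The other 9 were chosen by function, with earlier results of these data known, and the question was whether they followed *Dgat2*.

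The bulk RNA-seq experiment comprised 8 libraries in 4 groups of 2, formed by crossing genotype (WT or *Unc93b1* 3d/3d) with treatment (control or αMARCO). *Unc93b1* 3d/3d mice carry a missense change in UNC93B1 in all of their cells and lack functional TLR3, TLR7 and TLR9. αMARCO is an antibody to the scavenger receptor MARCO (rat IgG1, clone ED31), given at 100 µg on days 3, 6, 9 and 12. All mice bore tumors of EO771, a mouse breast cancer line placed in the mammary fat pad, and viable TAMs were sorted on day 21 by CD45, CD11b and F4/80, with Gr-1+ cells left out. Control mice are untreated in the titles and PBS in the library names, but the protocol gives an isotype antibody, so what they received remained unsettled. Each control library was pooled from several mice, while pooling of the αMARCO libraries was not given in the sources used here, so p-values describe the spread between these libraries. The second *Unc93b1* 3d/3d control library carries 3d/4d in its genotype field and 3d/3d in its title, and was grouped by the title.

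Cells store fatty acids as triglyceride and cholesterol as cholesteryl ester in the core of lipid droplets, which perilipins coat. DGAT1 and DGAT2 are unrelated enzymes that catalyse the same last step of triglyceride synthesis. Stored triglyceride is cut in turn by ATGL (*Pnpla2*), hormone-sensitive lipase (*Lipe*) and monoglyceride lipase (*Mgll*). Macrophages also take in lipid from lipoproteins, and in excess they fill with droplets and are called foam cells.

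Library totals ran from 15182618 to 26411936 counts. Levels are given as CPM (read counts scaled to library size, with TMM factors over the 8 libraries), and the detection floor of 3 counts corresponded to 0.116 to 0.204 CPM on this scale, for counting error only. The second *Unc93b1* 3d/3d αMARCO library stood apart. Its nearest neighbor lay at a Euclidean distance of 132 in log2 CPM over 16620 genes, against 56.1 to 74.6 for the other 7 libraries. Most results that rest on this library are therefore given with and without it. Summed CPM of 10 macrophage markers (*Adgre1*, *Csf1r*, *Cd68*, *C1qa* and others) was 10764 to 17732 in every library. *Unc93b1* itself was 849 and 966 CPM in WT controls, 540 and 660 in *Unc93b1* 3d/3d controls, 750 and 708 in αMARCO-treated WT and 558 and 641 in αMARCO-treated *Unc93b1* 3d/3d TAMs. Every *Unc93b1* 3d/3d library lay below every WT library. The log2 fold change between genotypes was -0.58 in controls (edgeR adjusted P = 0.0125) and -0.29 under αMARCO (adjusted P = 0.71). A missense change leaves the transcript in place, so these levels did not check the labels.

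*Dgat2* (chr7:99153658-99182719 of GRCm38, minus strand, ENSMUSG00000030747) was 126 and 118 CPM in the *Unc93b1* 3d/3d control libraries, from 2008 and 2326 counts. It was 10.3 and 7.05 CPM in WT controls, and after αMARCO 7.43 and 10.8 in WT and 10.7 and 13.7 in *Unc93b1* 3d/3d TAMs. The lowest *Unc93b1* 3d/3d control library thus lay above every other library. The group means, with SD over 2 libraries, were 122 ± 5.72, 12.2 ± 2.10, 9.14 ± 2.42 and 8.66 ± 2.28 CPM for *Unc93b1* 3d/3d control, *Unc93b1* 3d/3d αMARCO, WT αMARCO and WT control in turn, and neighbors among the last 3 overlapped. The mean in *Unc93b1* 3d/3d control was 14.1 times that of WT control, 13.4 times that of WT αMARCO and 10.02 times that of *Unc93b1* 3d/3d αMARCO. On the log2 scale the fitted difference from WT control was 3.83, and leaving out each of the 4 libraries in turn gave 3.58 to 4.12. These values chose the gene and carry no test.

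*Dgat1* (chr15:76502015-76511953, minus strand), whose enzyme makes triglyceride in the endoplasmic reticulum, had a different pattern. It was 72.6 and 60.7 CPM in WT controls and 72.0 and 42.0 in *Unc93b1* 3d/3d controls. These groups overlapped, and the log2 fold change was -0.21 (95% confidence interval -0.96 to 0.54, edgeR quasi-likelihood adjusted P = 0.66). In αMARCO-treated mice it was 99.5 and 95.2 CPM in WT and 73.0 and 83.6 in *Unc93b1* 3d/3d. *Dgat1* rose with αMARCO in WT TAMs, with a log2 fold change of 0.55 (SE 0.0958, edgeR adjusted P = 0.00222). In *Unc93b1* 3d/3d TAMs it was 0.47 (95% confidence interval -0.28 to 1.21, edgeR adjusted P = 0.823). The difference between the 2 effects was -0.09 (edgeR adjusted P = 0.904), so the rise was not shown to be particular to WT. The ratio of *Dgat2* to *Dgat1*, both per kb of gene length, was 0.115 to 0.140 in WT controls, 1.74 and 2.79 in *Unc93b1* 3d/3d controls, 0.0741 and 0.113 in αMARCO-treated WT and 0.145 and 0.162 in αMARCO-treated *Unc93b1* 3d/3d TAMs. *Dgat2* exceeded *Dgat1* only in the *Unc93b1* 3d/3d control libraries.

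**Figure D1:**
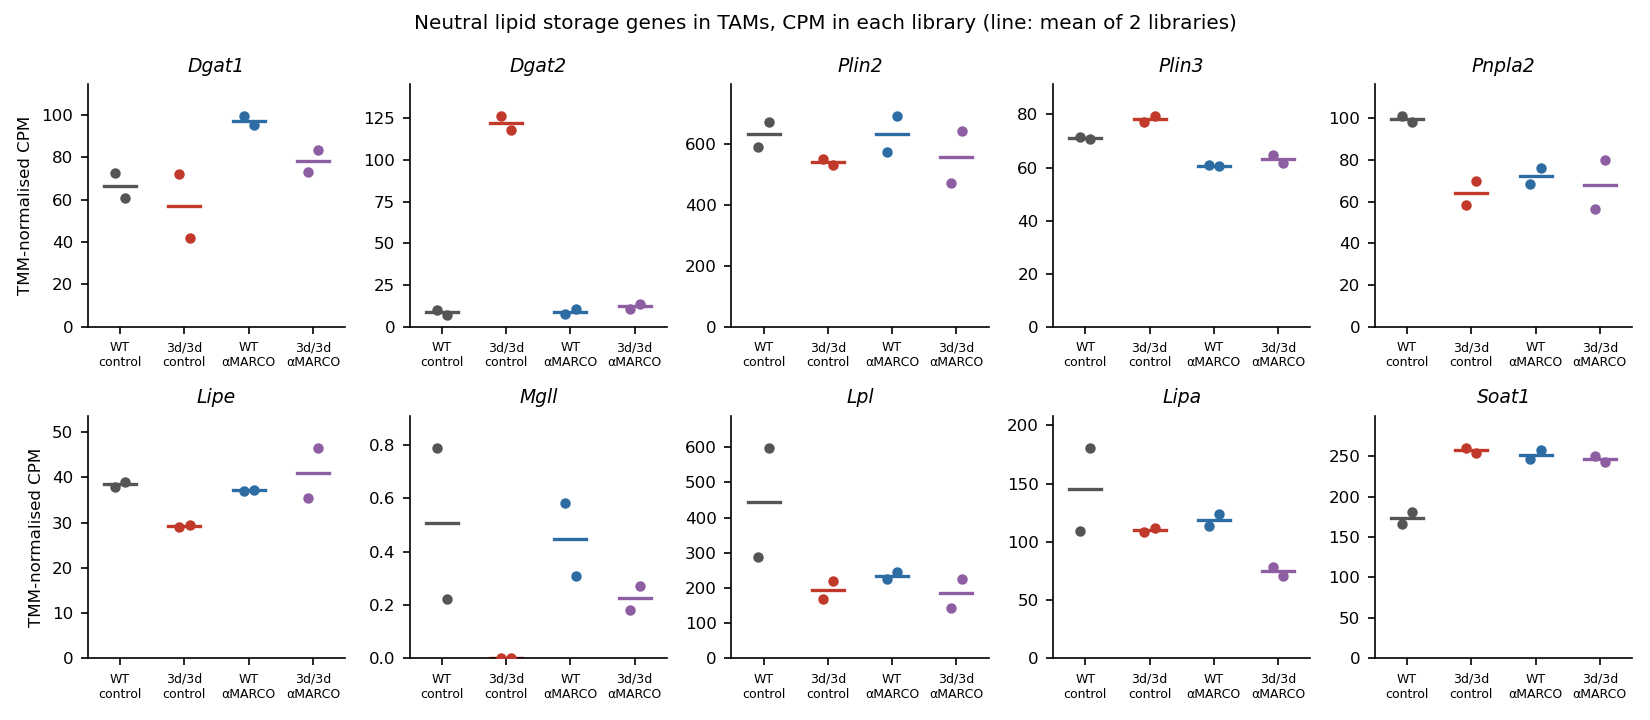
TMM-scaled CPM (vertical axes from 0) of the 10 genes in each of the 8 libraries, with 1 point a library and a line at the mean of 2 libraries. *Dgat2* is 126 and 118 CPM in *Unc93b1* 3d/3d control and at most 13.7 CPM elsewhere, and *Soat1* is lowest in the WT control libraries.

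*Plin2* (chr4:86648386-86670060, minus strand), the perilipin that coats droplets in most cells and the most abundant of the 10 per kb in every group, was 592 and 673 CPM in WT controls and 552 and 530 in *Unc93b1* 3d/3d controls. In αMARCO-treated mice it was 574 and 692 CPM in WT and 472 and 643 in *Unc93b1* 3d/3d. The *Unc93b1* 3d/3d control libraries lay below WT control, but the log2 fold change of -0.21 (95% confidence interval -0.45 to 0.03) did not pass the edgeR test (adjusted P = 0.194). *Plin3* (chr17:56278962-56290511, minus strand), a perilipin that also exists free in the cytosol, was 71.3 and 70.8 CPM in WT controls and 77.0 and 79.4 in *Unc93b1* 3d/3d controls, with 60.8 and 60.6 in αMARCO-treated WT and 64.8 and 61.5 in αMARCO-treated *Unc93b1* 3d/3d TAMs. Its replicates were close and its control groups did not overlap, yet the log2 fold change of 0.15 (95% confidence interval -0.05 to 0.36) did not pass the test (adjusted P = 0.267). Among the other 9 genes *Plin3* had the highest Pearson correlation with *Dgat2* in log2 CPM over the 8 libraries, 0.755, which ranked 278 of 16619 genes.

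*Pnpla2* (chr7:141455198-141460743, plus strand) encodes ATGL, the first lipase of triglyceride breakdown. It was 101 and 98.1 CPM in WT controls, 58.3 and 69.6 in *Unc93b1* 3d/3d controls, 68.6 and 75.9 in αMARCO-treated WT and 56.5 and 79.7 in αMARCO-treated *Unc93b1* 3d/3d TAMs. Both WT control libraries lay above the other 6. *Pnpla2* fell in *Unc93b1* 3d/3d control relative to WT control, with a log2 fold change of -0.62 (SE 0.106, 95% confidence interval -0.86 to -0.38, edgeR adjusted P = 0.0049), a fold of 0.650. With αMARCO in WT the log2 fold change was -0.45 (adjusted P = 0.00278), short of the fold threshold of 0.5. *Lipe* (chr7:25379527-25398710, minus strand), hormone-sensitive lipase, was 37.9 and 38.9 CPM in WT controls, 29.0 and 29.5 in *Unc93b1* 3d/3d controls, 36.9 and 37.3 in αMARCO-treated WT and 35.3 and 46.5 in αMARCO-treated *Unc93b1* 3d/3d TAMs. The *Unc93b1* 3d/3d control libraries were the lowest of the 8. The log2 fold change from WT control was -0.38 (adjusted P = 0.0413), again under the fold threshold. The opposite-strand gene *4732471J01Rik* overlaps *Lipe*, and reached 2.19 CPM at most.

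*Mgll* (chr6:88724412-88828360, plus strand), which cuts the last fatty acid from monoglyceride, was near the floor in TAMs. It had 15 and 4 counts in WT controls, 0 and 0 in *Unc93b1* 3d/3d controls, 12 and 8 in αMARCO-treated WT and 4 and 4 in αMARCO-treated *Unc93b1* 3d/3d TAMs. With the floor of 3 counts in each *Unc93b1* 3d/3d control library, its mean in WT control was at least 2.97-fold higher. This bound rests on the first WT control library, which alone gives 4.64, whereas the second gives 1.302. It passed the filter on low counts only in the αMARCO comparison of WT libraries and in the model of all 8 libraries.

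*Lpl* (chr8:68880491-68907448, plus strand) encodes the secreted lipoprotein lipase, which frees fatty acids from lipoproteins. It was 288 and 599 CPM in WT controls, 170 and 221 in *Unc93b1* 3d/3d controls, 225 and 245 in αMARCO-treated WT and 144 and 225 in αMARCO-treated *Unc93b1* 3d/3d TAMs. The control groups did not overlap, but the WT control replicates differed so much that the log2 fold change of -1.17 had a 95% confidence interval of -2.62 to 0.28 (edgeR adjusted P = 0.208). Leaving out the first WT control library moved it to -1.61, and leaving out the second moved it to -0.55. Each of these fits holds 1 WT control library, so the spread between the WT controls does not enter. *Lipa* (chr19:34492318-34527474, minus strand), the acid lipase of lysosomes, was 109 and 181 CPM in WT controls, 109 and 112 in *Unc93b1* 3d/3d controls, 113 and 124 in αMARCO-treated WT and 78.8 and 70.9 in αMARCO-treated *Unc93b1* 3d/3d TAMs. The second WT control library alone was high. The log2 fold change of *Lipa* between control groups was -0.38 (edgeR adjusted P = 0.348), with values of -0.71 without the first WT control library and 0.021 without the second. The first and second WT control libraries also differed in summed CPM of classical monocyte markers (1196 and 699) and mature dendritic cell markers (1232 and 756), whose part in *Lpl* and *Lipa* was not tested.

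*Soat1* (chr1:156424525-156474331, minus strand) encodes the enzyme that esterifies cholesterol for storage. It was 166 and 181 CPM in WT controls, 260 and 254 in *Unc93b1* 3d/3d controls, 246 and 257 in αMARCO-treated WT and 250 and 243 in αMARCO-treated *Unc93b1* 3d/3d TAMs. The WT control libraries were the lowest, and the other 6 lay within 243 to 260 CPM. *Soat1* rose in *Unc93b1* 3d/3d control relative to WT control by a log2 fold change of 0.59 (SE 0.0954, 95% confidence interval 0.37 to 0.80, edgeR adjusted P = 0.00414). It also rose with αMARCO in WT by 0.55 (SE 0.0817, adjusted P = 0.0011). Both comparisons use the same 2 WT control libraries. *Gm37648*, on the other strand, overlaps *Soat1* and reached 3.14 CPM at most.

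*Soat1* and *Pnpla2* are the pair among the 9 that passed the threshold between the control genotypes, and the 250 bases before their RefSeq starts (GRCm38.p6, 5′ to 3′ on the gene's strand) are shown so that the upstream sequence can be set beside their opposite changes. Capitals mark matches on either strand to the E-box CACGTG, the CCAAT box, the TATA box with the letters TATAAA, the GC box GGGCGG and the nuclear receptor half-site AGGTCA.
*Soat1*, chr1:156474329-156474578, minus strand: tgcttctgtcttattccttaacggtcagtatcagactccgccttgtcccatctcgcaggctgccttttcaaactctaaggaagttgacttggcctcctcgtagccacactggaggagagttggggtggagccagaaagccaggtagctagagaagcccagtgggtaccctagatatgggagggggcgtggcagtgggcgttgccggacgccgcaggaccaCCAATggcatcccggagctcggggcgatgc
*Pnpla2*, chr7:141454938-141455187, plus strand: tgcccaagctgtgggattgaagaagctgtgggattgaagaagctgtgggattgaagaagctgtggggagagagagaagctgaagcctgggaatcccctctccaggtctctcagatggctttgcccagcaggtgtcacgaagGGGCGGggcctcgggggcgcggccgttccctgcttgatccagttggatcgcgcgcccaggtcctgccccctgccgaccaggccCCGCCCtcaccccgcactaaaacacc
The *Soat1* window held 1 CCAAT, whose first base lay 30 bases before the start. The *Pnpla2* window held GGGCGG 109 bases before the start, and on the other strand 26 bases before it. CCAAT occurred in 33.8% and GGGCGG in 32.7% of 32851 promoters of this length in the same table, TATAAA in 12.4%, AGGTCA in 14.0% and CACGTG in 6.02%. A match of letters is a description and not a site. The table held 7 of the 10 genes, and *Dgat1*, *Dgat2* and *Lpl* were not among them.

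The other 9 genes did not follow *Dgat2* as a group. A gene was called where the edgeR adjusted P was at most 0.05 and the log2 fold change at least 0.5 in size. Between control genotypes, 8 of the 9 passed the filter on low counts, of which 1 was called higher (*Soat1*) and 1 lower (*Pnpla2*). Over all 15600 tested genes 6.4% were called higher and 6.58% lower. Of the 8, 2 had a log2 fold change above 0 and 6 below, with a median of -0.30 against 0.0036 over all tested genes. In CPM, 7 of the 9 did not overlap between the control groups, 2 higher and 5 lower, where 63.1% of all tested genes did not overlap. The summed CPM of the 10 was 1449 and 1910 in WT controls and 1454 and 1456 in *Unc93b1* 3d/3d controls, to which *Dgat2* gave 0.709% and 0.369%, and 8.68% and 8.11%.

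**Figure D2:**
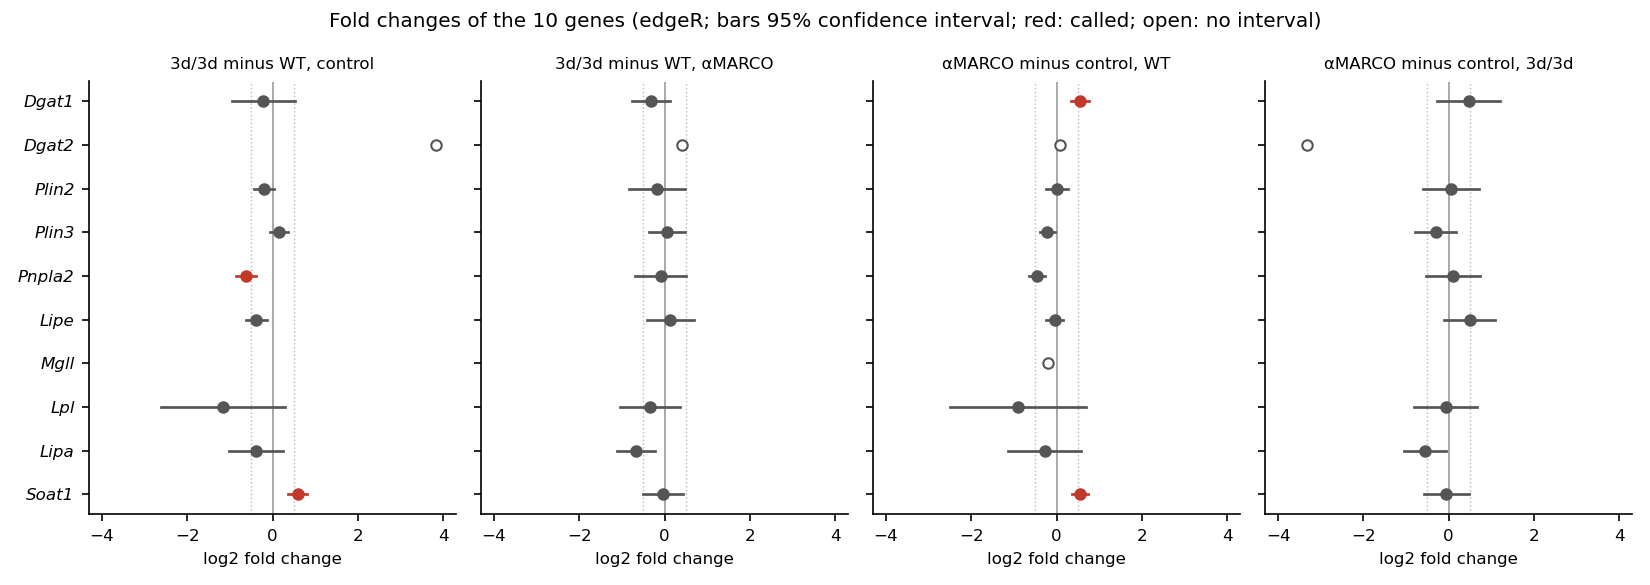
Log2 fold changes (horizontal axes) of the 10 genes in the 4 comparisons, with bars for the 95% confidence interval from edgeR, dotted lines at 0.5 either side of 0, red for called genes and open circles where no interval is given (*Dgat2*, which was selected on these values, and *Mgll*). *Dgat2* lies at 3.83 and -3.32 in the comparisons with *Unc93b1* 3d/3d control and at 0.41 and 0.09 in the others.

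In WT TAMs, the log2 fold change of *Dgat2* with αMARCO was 0.09, and its direction turned with the library left out. It was -0.16 without the second WT control library and -0.22 without the second αMARCO library, and 0.38 and 0.34 without the first of each. *Dgat1* and *Soat1* were called higher, at 0.55 each, and none of the 9 was called lower, where 8.91% of 15630 tested genes were called higher and 11.8% lower. Fold changes of *Lpl* (-0.91, 95% confidence interval -2.50 to 0.68) and *Lipa* (-0.28, -1.14 to 0.58) did not pass the test (adjusted P = 0.259 and 0.518). Without the first WT control library, *Soat1* was 0.48 and under the fold threshold, and without the second *Dgat1* was 0.42. When all 8 libraries entered 1 model, which takes the spread from the outlying library as well, none of the 9 was called between control genotypes (*Soat1* adjusted P = 0.0867, *Pnpla2* 0.153) or with αMARCO in WT (*Soat1* 0.1, *Dgat1* 0.254), with fold changes nearly the same.

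In *Unc93b1* 3d/3d TAMs, *Dgat2* was lower with αMARCO by a log2 fold change of -3.32, and it was -3.51 without the outlying library. edgeR called 0 of 15428 genes in this comparison (0%), and DESeq2 called 60. An unadjusted edgeR P up to 0.05 was reached by 744 genes, fewer than a share of 0.05 of those tested. None of the 9 was called by either tool. *Lipa* had the lowest P of the 9, with a log2 fold change of -0.55 (95% confidence interval -1.04 to -0.06, adjusted P = 0.823), and *Soat1* was -0.06 (-0.58 to 0.47). Without the outlying library 571 genes were called (3.41%), and none of the 9. *Lipa* was then -0.48 (adjusted P = 0.0267), just under the fold threshold.

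Between genotypes under αMARCO, which shares no library with the control comparison, *Dgat2* differed by 0.41 on the log2 scale and its groups overlapped, at 10.8 CPM in the higher WT library and 10.7 in the lower *Unc93b1* 3d/3d library. The difference was 0.16 and 0.71 without the first and second WT library, and 0.57 and 0.22 without the first and second *Unc93b1* 3d/3d library. edgeR called 0 of 15722 genes (0%), although 1076 had an unadjusted P up to 0.05 and DESeq2 called 214. Of the 9, 4 did not overlap in CPM, 1 higher and 3 lower, against 44.3% of all tested genes. *Lipa* was the furthest from 0 of the 8 tested, at -0.67 (95% confidence interval -1.12 to -0.21, adjusted P = 0.568). Without the outlying library 1252 genes were called (7.45%), and *Lpl* (-0.71, SE 0.0975, adjusted P = 2.81e-05) and *Lipa* (-0.59, SE 0.0946, adjusted P = 0.000163) fell in *Unc93b1* 3d/3d relative to WT. The remaining *Unc93b1* 3d/3d library is then assumed to vary like the WT pair.

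The difference between the 2 αMARCO effects was tested in a model of all 8 libraries, in which 0 of 16620 genes were called (0%), 2549 had an unadjusted P up to 0.05 and DESeq2 called 211. For *Dgat2* the effect in *Unc93b1* 3d/3d minus that in WT was -3.41 on the log2 scale. For *Soat1* it was -0.60 (95% confidence interval -1.05 to -0.16, adjusted P = 0.318), for *Pnpla2* 0.55 (-0.06 to 1.16, adjusted P = 0.34) and for *Lipe* 0.54 (-0.004 to 1.07, adjusted P = 0.324). *Pnpla2* and *Lipe* were 0.29 and 0.34 without the outlying library. Without the outlying library 612 genes were called (3.45%), among them *Soat1* (-0.57, adjusted P = 0.0419).

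Per kb of gene length, *Dgat2* stood ninth of the 10 in the other 3 groups (WT control, WT αMARCO, *Unc93b1* 3d/3d αMARCO), at 2.81, 2.96 and 3.95 CPM per kb. In *Unc93b1* 3d/3d control it stood second, at 39.6 ± 1.85 CPM per kb (SD, n = 2), below *Plin2* at 154 ± 4.39 and above *Lipa* at 37.1 ± 0.685 and *Plin3* at 36.2 ± 0.759. *Lipa* and *Plin3* there lay within their spread of each other, as did *Pnpla2*, *Lpl* and *Dgat1* at 21.2, 18.7 and 18.6. In WT control the order after *Plin2* (180 ± 16.4) was *Lipa* (48.8 ± 17.1), *Lpl* (42.3 ± 21.0), *Pnpla2* (33.0 ± 0.655), *Plin3* (32.9 ± 0.159), *Dgat1* (21.8 ± 2.77), *Soat1* (17.7 ± 1.08) and *Lipe* (6.53 ± 0.128), and the range of *Lpl* overlapped those of *Lipa*, *Pnpla2* and *Plin3*, while *Lipa* (36.7 and 61.0) lay above *Pnpla2* (33.4 and 32.5) and *Plin3* (33.0 and 32.8), which overlapped each other. *Mgll* was last in every group.

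The wider pathway was followed in 8 lists of 97 genes, with the 10 left out. Between control genotypes 78 were tested, of which 9 (11.5%) were called higher and 8 (10.3%) lower, where 6.4% and 6.58% of all tested genes were, with a median log2 fold change of -0.10 against 0.0036 over all. The lists are small, so their counts below are descriptions to be set beside these shares. Of triglyceride synthesis genes, 2 of 15 were higher and 2 lower. *Lpin1*, a phosphatidate phosphatase 2 steps upstream of stored triglyceride, rose by 0.82 (adjusted P = 0.00644) and the acyl-CoA synthetase *Acsl3* by 0.69 (adjusted P = 0.0168). *Acsl5*, of the same family, fell to -0.88 (adjusted P = 0.000515) and the acyltransferase *Agpat3* to -0.73 (adjusted P = 0.00282). None of 6 tested droplet coat and assembly genes was called. Of 7 lipolysis regulators and other lipases, *Ddhd2* (0.69) and *Dagla* (0.62) were called higher and none lower, with a list median of -0.14. The largest change in this list, *G0s2* at -2.38, did not pass the edgeR test (adjusted P = 0.0676). It went from 85 and 30 counts in WT control to 16 and 4 in *Unc93b1* 3d/3d control.

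The cholesterol list had 3 of 6 genes called higher and none lower between control genotypes. *Abca1*, which exports cholesterol, was 103 and 120 CPM in WT controls and 434 and 421 in *Unc93b1* 3d/3d controls, a log2 fold change of 1.96 (SE 0.108, adjusted P = 9.42e-06). *Nceh1*, which hydrolyses cholesteryl ester, rose by 0.76 (adjusted P = 0.00124) and *Soat2*, the relative of *Soat1*, by 0.52 (adjusted P = 0.0152). Genes for both making and cutting cholesteryl ester were thus called higher in the same TAMs. In the lipoprotein list the uptake receptor *Lrp1* rose by 0.82 and *Angptl4*, an inhibitor of lipoprotein lipase, was called lower at -1.81 (18.9 and 18.3 CPM in WT controls, 6.28 and 4.27 in *Unc93b1* 3d/3d controls).

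Among fatty acid uptake and binding genes, *Fabp5*, a fatty acid binding protein, rose by 0.97 (adjusted P = 0.0011) and the transporter family gene *Slc27a3* fell to -1.76 (adjusted P = 0.015), out of 7 tested. Of the 13 tested lipid regulators none was called higher and 2 lower. These were *Pparg*, the nuclear receptor PPARγ, at 82.3 and 102 CPM in WT controls and 27.1 and 29.4 in *Unc93b1* 3d/3d controls (log2 fold change -1.69, adjusted P = 6.74e-05), and *Nr1h3*, the oxysterol receptor LXRα, at 149 and 217 and at 42.7 and 59.9 CPM (-1.82, adjusted P = 0.0094). *Abca1*, a textbook target of LXRα, was called in the opposite direction. *Abcg1*, of the same list as *Abca1*, went the way of *Nr1h3* at -0.49 (edgeR adjusted P = 0.0102), under the fold threshold. It was 359 and 404 CPM in WT controls and 269 and 267 in *Unc93b1* 3d/3d controls. The part of LXRα in either gene was not tested. Under αMARCO, where *Dgat2* was low in both genotypes, *Nr1h3* was 155 and 154 CPM in WT and 36.9 and 47.0 in *Unc93b1* 3d/3d. *Pparg* was 65.4 and 63.5 CPM in WT and 26.2 and 40.0 in *Unc93b1* 3d/3d. The log2 fold changes between genotypes there were -1.88 (SE 0.205) for *Nr1h3* and -0.97 (SE 0.255) for *Pparg*. Neither passed the edgeR test (adjusted P = 0.171 and 0.572), in a comparison that called 0 of 15722 genes. Of 18 fatty acid oxidation genes, 2 were lower between control genotypes (*Eci1* -0.76, *Acaa2* -0.61) and none higher.

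With αMARCO in WT TAMs, 5 of 78 pathway genes (6.41%) were called higher and 14 (17.9%) lower, where 8.91% and 11.8% of all tested genes were, with a median of -0.15 against -0.012 over all. The higher genes were *Abca1* (1.20), *Soat2* (0.85), *Lrp1* (0.77), *Dagla* (0.57) and the phosphatase *Lpin2* (0.50). The lower ones included 5 of 18 fatty acid oxidation genes, led by *Acaa2* (-0.68), *Etfa* (-0.67) and *Acadl* (-0.61), and 3 of 7 uptake and binding genes, *Slc27a3* (-2.81), *Fabp4* (-1.17) and *Dbi* (-0.67). *G0s2*, an inhibitor of ATGL, was called lower at -2.89, from 85 and 30 counts in WT control to 8 and 11. *Angptl4* (-0.78), *Acsl5* (-0.71), *Agpat3* (-0.64), *Pparg* (-0.51) and *Rxra* (-0.51), the partner receptor RXRα, were also called lower. This comparison and that of control genotypes use the same WT control libraries, so their calls are not independent. *Abca1*, *Soat2*, *Lrp1* and *Dagla* were called higher in both. *Agpat3*, *Acsl5*, *Angptl4*, *Slc27a3*, *Eci1*, *Acaa2* and *Pparg* were called lower in both, and no pathway gene was called in opposite directions. The part of the WT control libraries in these shared calls was not tested. edgeR called 0 pathway genes in the other 3 comparisons. Pathway counts without the outlying library, a choice made after seeing the data, rest on 1 library in its group and are not set out here.

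**Figure D3:**
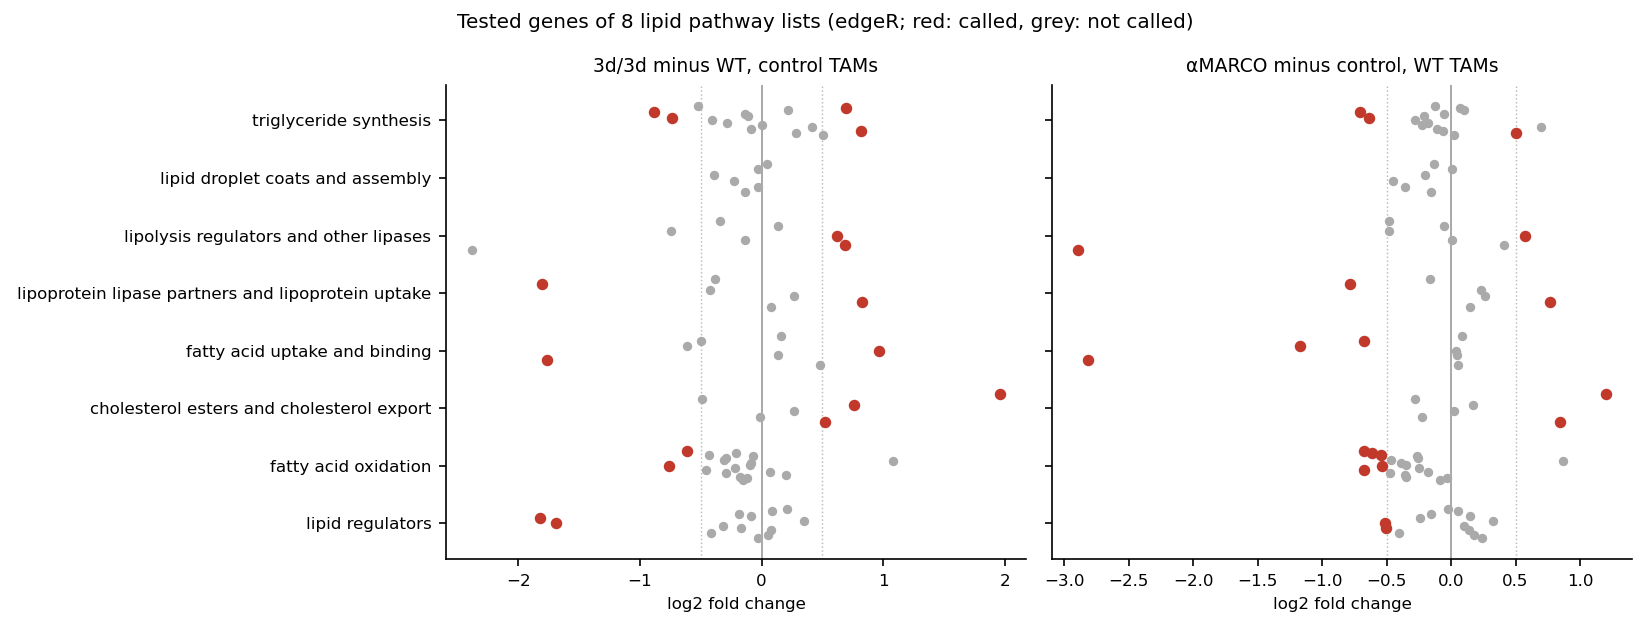
Log2 fold changes (horizontal axes) of the tested genes of 8 lipid pathway lists, 1 point a gene, between control genotypes (left) and with αMARCO in WT (right), with dotted lines at 0.5 either side of 0 and called genes in red. All 3 called genes of the cholesterol list lie to the right of 0 at left, led by *Abca1* at 1.96, and all called oxidation genes lie to the left of 0 in both panels. Both panels use the same WT control libraries.

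The 10 genes whose log2 CPM had the highest Pearson correlation with *Dgat2* over the 8 libraries, of 16619 genes that passed the filter, were *Fabp5* (0.966), *Nceh1* (0.957), *Nid2*, *Tmem8*, *Cant1*, *Npl*, *Nectin4*, *Spdl1*, *Pomk* and *Ldlrad4* (0.943). The first 2 belong to the lipid lists above. *Fabp5* was 1015 and 1107 CPM in *Unc93b1* 3d/3d control and 495 to 703 in the other 6 libraries, and *Nceh1* was 157 and 171 against 93.5 to 112. *Npl*, a sialic acid lyase, came closest to *Dgat2* in the size of its difference, with a mean of 43.8 CPM in *Unc93b1* 3d/3d control and 5.76 to 8.74 in the other groups. The correlation describes libraries that fall into 2 sets, since 2 of the 8 are high. Over the 6 libraries without *Unc93b1* 3d/3d control it was 0.901 for *Fabp5*, 0.867 for *Cant1*, 0.836 for *Tmem8* and 0.684 for *Ldlrad4*. It was 0.616 for *Npl*, 0.583 for *Spdl1*, 0.397 for *Nceh1*, 0.334 for *Pomk*, 0.278 for *Nectin4* and 0.176 for *Nid2*. *Dgat2* spanned only 7.05 to 13.7 CPM in these 6 libraries. Of the other 9 storage genes, *Soat1* (0.454) and *Plin3* were positive, and 7 were negative, from -0.103 for *Lipa* to -0.787 for *Lipe* and -0.875 for *Mgll*.

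**Figure D4:**
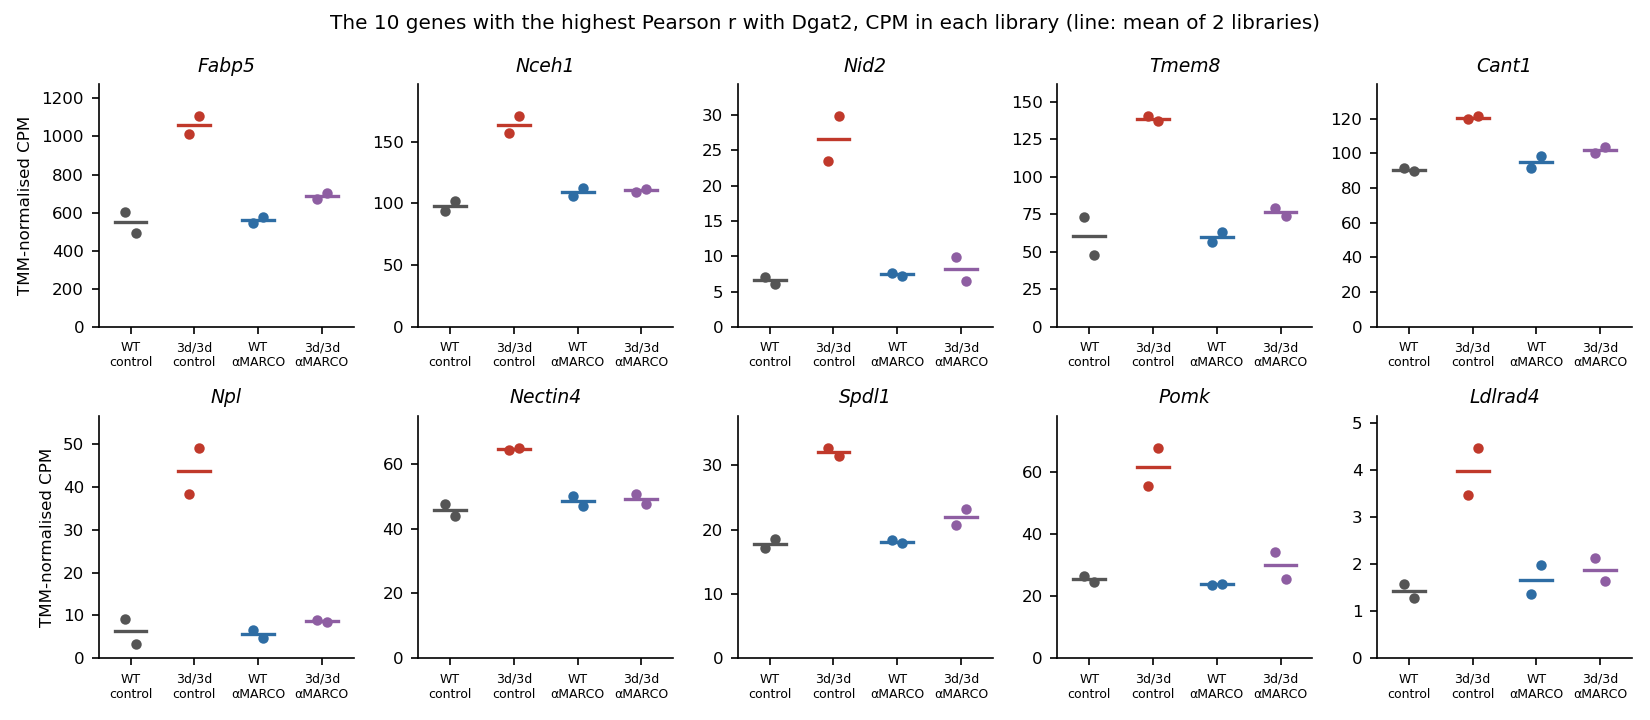
TMM-scaled CPM (vertical axes from 0) in each library of the 10 genes most correlated with *Dgat2*, with 1 point a library and a line at the mean of 2 libraries. Every gene is highest in the 2 *Unc93b1* 3d/3d control libraries, by which it was picked, and *Fabp5* there is 1015 and 1107 CPM.

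Markers of other cell types moved with the groups. The 8 adipocyte markers in the tables summed to 0.309 to 1.19 CPM in every library, and none passed the filter. *Adipoq* was at 0 in all 4 control libraries. Summed T cell markers were 141 and 157 CPM in WT controls, 15.8 to 32.4 in *Unc93b1* 3d/3d controls, 15.01 to 21.7 in αMARCO-treated WT and 10.48 in both αMARCO-treated *Unc93b1* 3d/3d libraries, and 12 of 12 were called lower between control genotypes and with αMARCO in WT. Mature dendritic cell markers were 756 to 1232 CPM in WT control, 228 to 256 in *Unc93b1* 3d/3d control, 330 to 405 in WT αMARCO and 312 to 324 in *Unc93b1* 3d/3d αMARCO, with 5 of 9 tested called lower between control genotypes and 6 of 9 with αMARCO in WT. The WT control libraries, which stood apart in *Soat1* and *Pnpla2*, were thus also the highest in these markers, and the part of such cells in either gene was not tested.

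Nonclassical monocyte markers summed to 1511 to 1555 CPM in WT control, 501 to 632 in *Unc93b1* 3d/3d control, 1275 to 1431 in WT αMARCO and 872 to 1088 in *Unc93b1* 3d/3d αMARCO. *Unc93b1* 3d/3d control, the group high in *Dgat2*, was the lowest here, with 5 of 10 called lower and 1 higher. Type 1 conventional dendritic cell markers were 809 to 849, 554 to 601, 609 to 615 and 505 to 534 CPM in the same order of groups, and classical monocyte markers 699 to 1196, 1277 to 1602, 1358 to 1527 and 1414 to 1554. B cell markers were 111 to 156, 26.3 to 27.5, 73.1 to 79.9 and 36.3 to 51.9 CPM, and NK cell markers 85.0 to 96.8, 8.63 to 28.9, 6.95 to 14.8 and 6.37 to 6.67. Fibroblast markers were 115 to 138, 162 to 194, 30.0 to 41.7 and 82.1 to 173 CPM, endothelial markers 293 to 297, 109 to 132, 198 to 200 and 97.5 to 113, neutrophil markers 37.3 to 77.0, 30.9 to 44.5, 20.1 to 25.5 and 22.5 to 25.9, and epithelial markers 53.3 to 106, 49.3 to 59.3, 30.9 to 32.1 and 69.3 to 70.7. Between control genotypes 1 of 4 tested endothelial markers was called lower and 0 higher. Their sum followed *Pecam1*, at 203 and 199 CPM in WT control and 28.9 and 24.1 in *Unc93b1* 3d/3d control. *Cdh5* (9.06 and 6.66, then 12.8 and 8.12 CPM) did not fall. Of 4 tested B cell markers 2 were called lower and 0 higher. Of 8 tested NK cell markers 2 were called lower and 0 higher. Their sum came mostly from *Gzmb*, at 63.4 and 57.8 CPM in WT control and 16.5 and 4.67 in *Unc93b1* 3d/3d control. *Ncr1*, at low counts (17 and 10, then 15 and 14), did not fall in CPM (0.896 and 0.555, then 0.943 and 0.711). In these bulk libraries fewer cells of a type and less RNA per cell cannot be told apart, and the part of any of these cells in the storage genes was not tested.

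**Figure D5:**
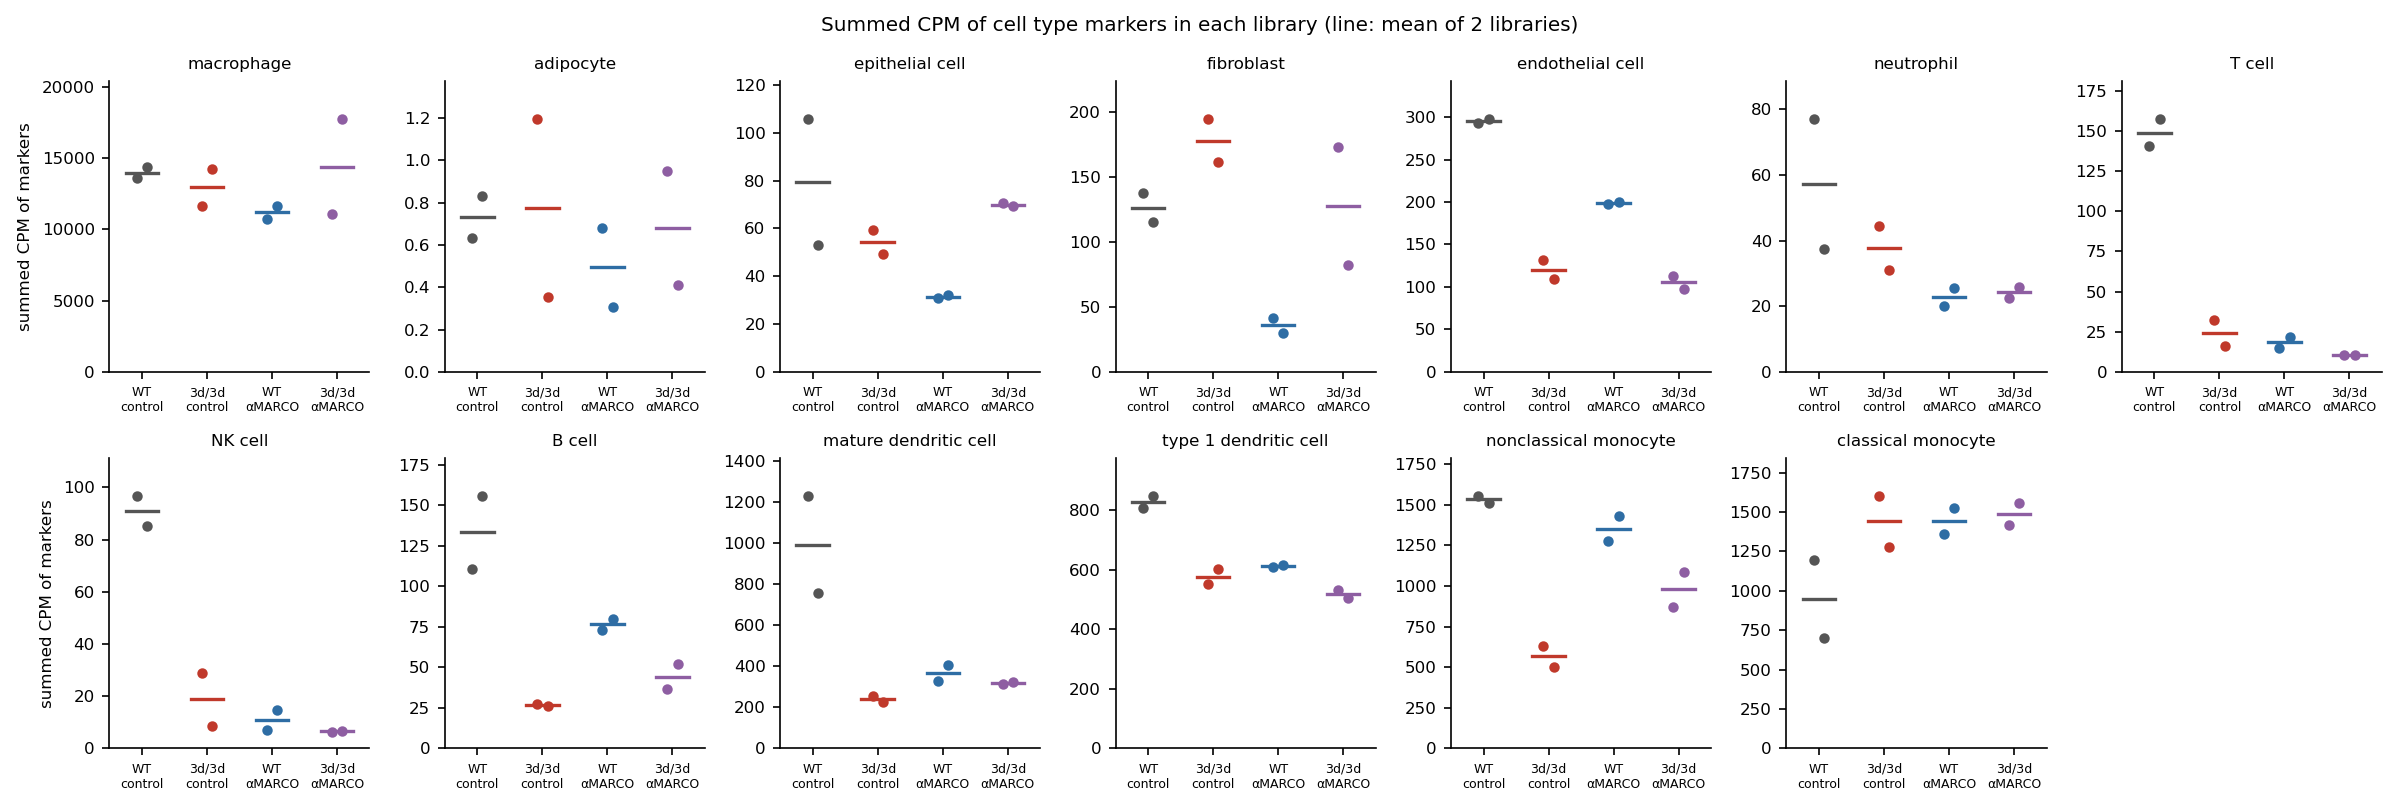
Summed CPM (vertical axes from 0) of 13 cell type marker lists in each library, with 1 point a library and a line at the mean of 2 libraries. T cell, NK cell and mature dendritic cell markers are highest in WT control, nonclassical monocyte markers are lowest in *Unc93b1* 3d/3d control, and adipocyte markers stay at or below 1.19 CPM.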

How the data were processed

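Bulk RNA of 8 sorted TAM samples was sequenced. Per the labels the authors processed reads with fastp, HISAT2 2.0.5 and featureCounts 1.5.0 on GRCm38, and the strand setting was not given in the sources used here. The authors deposited 3 tables, each with raw read counts per gene of 4 libraries, unnormalized. FPKM columns, which the authors derived from the counts by dividing by gene length and sequencing depth, served here only to check the order of levels. The authors' normalized values, fold changes and p-values from DESeq2 1.40.2 were not used.

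Joining on gene identifiers gave 26939 genes. Of 95230 counts present in more than 1 of the tables, 0 differed, and a gene that a table left out (at most 1 count where another table held it) was given 0. Tests used edgeR 4.0.16 in R 4.3.3 (TMM, filterByExpr, robust quasi-likelihood fit, Benjamini-Hochberg over all tested genes), on the 4 libraries of each comparison, or on all 8 for the difference between αMARCO effects, called on adjusted P alone. DESeq2 1.42.0 was an alternative. The code was tested on simulated counts.

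The members and lists were chosen with earlier results of these data known. Genes named were the members, *Unc93b1*, up to 3 called genes in each direction from each pathway list and comparison by size of change, marker genes at 0 or highest, and the 10 genes most correlated with *Dgat2* (log2 CPM, prior count 2). Genes outside this rule, such as overlapping and neighboring genes, were named after their values were seen. Where a replicate was left out, the lone library was assumed to vary like the other group. Samples were grouped by title. Replicate numbers recur between groups but were not taken as pairs. Alternatives were other scaling, filters and thresholds, a replicate block, all 8 libraries in 1 model and each library left out.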

Additional observations from a re-analysis of the deposited data

Results flagged for a closer look

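The 2 control-to-αMARCO changes of *Soat1* ran in opposite directions in every library of the 2 genotypes. Both αMARCO libraries lay above both controls in WT, and below both controls in *Unc93b1* 3d/3d. The difference of the 2 log2 fold changes was -0.60 in the edgeR model of all 8 libraries and did not pass the test (adjusted P = 0.318). The size of the fall in *Unc93b1* 3d/3d was -0.06.

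*Lipe* had the opposite form, with both αMARCO libraries below both controls in WT and above them in *Unc93b1* 3d/3d. The difference was 0.54 on the log2 scale and did not pass the edgeR test (adjusted P = 0.324). It was 0.34 without the outlying library. The change in WT was -0.04.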

How the results depend on the processing

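With all 8 libraries in 1 model, 364 genes were called between control genotypes and 164 with αMARCO in WT, each with 0 of the 9 genes, 1 gene with αMARCO in *Unc93b1* 3d/3d and 108 between genotypes under αMARCO. Higher calls then made up 31.6% and 27.4% in the first 2 comparisons, where the pairwise fits called 998 of 2025 genes higher in the first. The cause was not tested. With a log2 threshold of 1, 951 and 1366 genes were called in the first 2 comparisons, each with 0 of the 9, and on adjusted P alone 5487 with αMARCO in WT. DESeq2 called 60 genes with αMARCO in *Unc93b1* 3d/3d, 214 between genotypes under αMARCO and 211 for the difference of effects. With no filter these counts were 174, 107 and 152, and *Mgll* was called between control genotypes. With a replicate block, 5 genes were called with αMARCO in *Unc93b1* 3d/3d and 97 between genotypes under αMARCO, and *Lpl* between control genotypes was -1.09 (adjusted P = 0.00118) and called. The numbers share no known source (correlations of deviations 0.00956, -0.000984, 0.111 and 0.135), and the block changed no other call of the 9.

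Leaving out 1 library at a time gave 1493 to 2232 genes and 2 to 4 of the 9 called between control genotypes. Between control genotypes *Dgat1* ran from -0.66 (without *Unc93b1* 3d/3d control replicate 1) to 0.13, and *Lipa* from -0.71 to 0.021. With αMARCO in WT, 1940 (without WT αMARCO replicate 1) to 3951 genes and 1 to 3 of the 9 were called, with *Plin2* from -0.14 to 0.15, *Mgll* from -0.84 to 0.97 and *Lipa* from -0.61 to 0.12. Here *Lpl* was -1.35 without WT control replicate 1, and *Pnpla2* was -0.53 without WT αMARCO replicate 2.

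With αMARCO in *Unc93b1* 3d/3d, *Plin2* ran from -0.20 to 0.26, *Pnpla2* from -0.18 to 0.33 and *Lpl* from -0.44 to 0.22. Between genotypes under αMARCO it was 17 to 6366 genes and 0 to 2 of the 9, with *Plin2* from -0.43 to 0.016, *Pnpla2* from -0.36 to 0.13 and *Lipe* from -0.072 to 0.32. The upper counts, 5500 and 6366, arose without *Unc93b1* 3d/3d αMARCO replicate 1, which leaves the outlying library alone in its group, and *Lipa* and *Lipe* were called in the first and *Lipa* in the second.

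For the difference of effects, *Dgat1* ran from -0.42 to 0.35, *Plin2* from -0.19 to 0.25 and *Lipa* from -0.67 to 0.055. Without *Unc93b1* 3d/3d αMARCO replicate 1 it was 6856, with *Lipe*, *Pnpla2* and *Soat1* among them, and without replicate 2 it was 612, with *Soat1*. The pathway genes were also fitted without replicate 2, a choice added after seeing the data, which leaves 1 library in its group. With at least 10 counts in every library *Plin2* was -0.034. Of the 10 genes most like *Dgat2*, 1 was shared with the 10 by Spearman correlation. The rank of *Dgat2* among the members was the same from FPKM values. The median of all genes stayed within 0.1 of 0 with TMM and DESeq2 scaling. With 2 libraries a group, the precision is limited by the spread between them, and low counts limit *Mgll*.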

Other observations

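Genes beside *Dgat2* on chromosome 7 were listed after the data were seen. The nearest 3 genes on each side that passed the filter were *Uvrag*, *Gm45188*, *Gm45187*, *Map6*, *Serpinh1* and *Gdpd5*. *Uvrag*, which acts in autophagy, was 131 and 109 CPM in WT control and 125 and 106 in *Unc93b1* 3d/3d control. *Gdpd5*, a glycerophosphodiester phosphodiesterase, was 23.3 and 23.0 CPM in the first and 23.6 and 25.6 in the second. The mean of each of the 6 genes in *Unc93b1* 3d/3d control was at most 1.24 times its highest mean in another group. *Gm45188*, a gene model that lies within the span of *Uvrag* and may share its reads, was called higher in *Unc93b1* 3d/3d control than in WT control by a log2 fold change of 0.96 (edgeR adjusted P = 0.0361), and the adjusted P of the other 5 ran from 0.512 to 0.984.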
